A study of Mus musculus with 4 samples.

Results

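A single leukemia with a mixed lineage immunophenotype was compared with normal bone marrow, gene by gene. Both were mouse samples, each hybridised to 1 Affymetrix expression array, and they made up 2 of the 4 arrays of the series. The choice of the pair followed the immunophenotype labels and used no measured value. Of 18193 genes with a probe set that carried a single gene symbol, 13328 were measured, that is, had a signal above a floor of 189 on at least 1 of the 2 arrays. The floor is the median of all signals over the 4 arrays.

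The study set leukemic cells from the marrow of diseased C57BL6 mice beside normal marrow. The mixed lineage leukemia came from hematopoietic stem or precursor cells that had been transduced with 2 fusion genes, AF4-MLL and MLL-AF4. The other leukemias, a proB acute lymphoblastic leukemia (proB ALL) and a biphenotypic B/T acute leukemia (B/T BAL), came from cells given AF4-MLL only, and their signals are quoted here for reference. Moribund mice were sampled several months on, and the cells were typed by flow cytometry without sorting, so each array reports whatever cells the marrow held. The labels give neither the share of leukemic cells nor the mouse number behind an array, and the normal sample is described only as control marrow. With 1 array per group there was no replicate and therefore no test, error or p-value: each difference below describes 2 arrays.

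MLL (Kmt2a) is a histone methyltransferase that keeps developmental genes such as the Hoxa cluster active, and AF4 (Aff1) is a scaffold of the complexes that release paused RNA polymerase. A chromosome translocation that joins their genes makes a reciprocal pair of fusion proteins and is known from aggressive leukemias of infants, which can show lymphoid and myeloid features together. Normal marrow is itself a mixture of red cell precursors, granulocytes, monocytes, megakaryocytes, lymphocytes and a few stem cells. In such bulk samples a lower signal from fewer cells of a type cannot be told apart from less RNA per cell.

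Signals are MAS5 values on a linear scale, and differences are log2(signal + 51.5) on the mixed lineage array minus the same on the normal array. The 51.5 added is the 25th percentile of all signals. Where the dimmer signal lay at or below the floor, a fold was computed with that signal at the floor and is written "at least". The mixed lineage array had raised low signals. Its 2nd percentile was 20.4 against 3.52 on the normal array, its median 254 against 163, and 57.4% of its probe sets exceeded the floor against 47.2%. Among probe sets grouped in deciles by their normal marrow signal, the median difference fell along the scale, from 0.88 in the dimmest decile to -0.23 in the ninth, and it was -0.06 in the brightest. The normal signal is itself part of that difference, which builds in some of that slope. Grouped by the mean of the other leukemia arrays instead, the medians were smaller, at 0.63, -0.11 and 0.02 in the same deciles. The 18 hybridisation control probe sets, spiked in at fixed amounts, were brighter on the mixed lineage array by a median ratio of 2.02 (range 1.67 to 2.58). Actb had a 3′ to 5′ signal ratio of 3.10 against 1.87. The part of these values in the gene differences was not tested.

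**Figure D1:**
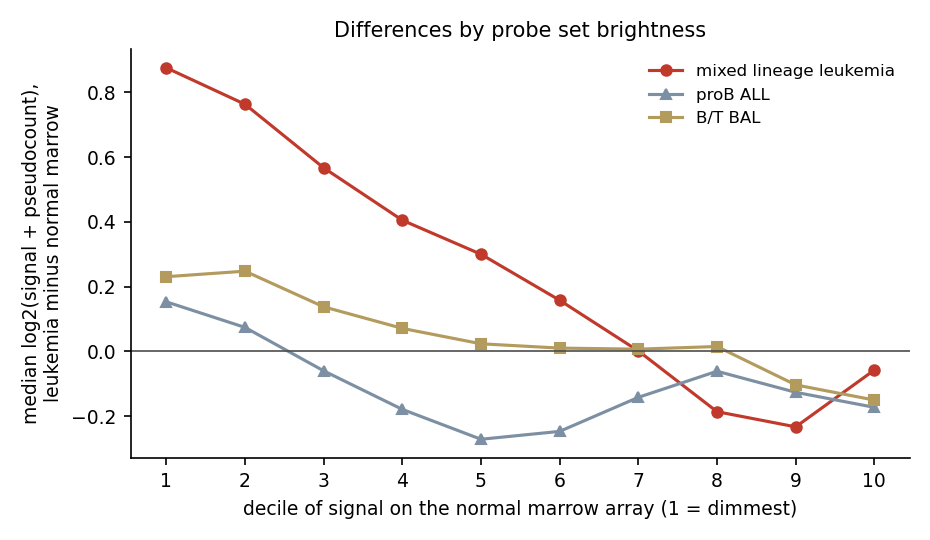
Median difference of log2(signal + 51.5) from normal marrow (y axis) for probe sets grouped in deciles by their signal on the normal array (x axis, 1 is dimmest), with 1 line per leukemia. The mixed lineage line starts at 0.88 and crosses 0 near the seventh decile, while the other lines start at 0.15 (proB ALL) and 0.23 (B/T BAL).

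Across the 13328 measured genes, 2580 (19.4%) were higher by 2-fold or more in the mixed lineage leukemia and 2055 (15.4%) lower by 2-fold or more. With dim signals set to the floor, 1529 (11.5%) were higher and 1815 (13.6%) lower. These shares are the background against which each gene list below is read. The largest differences were mostly lower genes. At least 8-fold at the floor, 25 genes were higher and 186 lower, and at least 64-fold, 0 were higher and 15 lower. The median difference of all measured genes was 0.09. It moved to 0.25 with the arrays scaled to their 75th percentile, to -0.60 with scaling to their median and to -0.996 with scaling to the hybridisation controls. The split of called genes moved with it. It was 1885 higher and 2363 lower under quantile normalization, 979 and 4264 under median scaling and 692 and 6580 under control scaling. At the floor it was 1999 and 1517 under 75th percentile scaling, 358 and 3900 under median scaling and 194 and 5997 under control scaling. List medians are therefore given beside that of all genes, and "relative to all genes" means the list median minus the median of all measured genes, with its range over the main setting and 12 others. Pearson's r across these genes was 0.83 between the 2 arrays, and genes are not independent replicates.

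Genes of monocytes were higher in the mixed lineage leukemia. All 19 measured monocyte genes lay above 0, 10 of them at least 2-fold, and 0 were 2-fold lower. The list median was 1.06, and 0.85 to 1.18 above that of all genes, with a median of 0.02 under scaling to the hybridisation controls. Vcan encodes versican, a matrix proteoglycan that monocytes secrete, and was the highest gene of the whole comparison. Its signal was 7714 in the mixed lineage leukemia, 300 in the proB ALL, 634 in the B/T BAL and 157 in the normal marrow, at least 40.8-fold above normal. Fn1 (fibronectin, a matrix protein) had 43413 in mixed lineage leukemia against 666, 4538 and 4677 in the proB ALL, the B/T BAL and normal marrow. For Itgam, the CD11b integrin of myeloid cells, the same 4 signals were 4382, 163, 216 and 1262. The C-type lectin Clec4a3 and the coagulation factor F13a1 had log2 differences of 1.68 and 1.61. The chemokine receptor Ccr2, which lets monocytes leave the marrow, stood at 8925 against 3169 in normal marrow, and at 11910 in proB ALL. By another probe set Ccr2 had 1015 against 1404 in normal marrow. At the other end of the list were 2 genes outside the naming rule, the macrophage growth factor receptor Csf1r and the chemokine receptor Cx3cr1, with differences of 0.19 and 0.09. The monocyte genes thus ranged from about equal to the normal level to far above it.

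Granule genes of neutrophil precursors were also at or above their normal level. Primary granules, made at the promyelocyte stage, are packed with serine proteases and myeloperoxidase. All 12 measured genes of this list were above 0, with 4 higher by 2-fold or more and a median of 0.84 (0.47 to 0.93 above all genes), which turned to -0.19 under scaling to the hybridisation controls. Ctsc, the protease that activates the granule enzymes, had 18017 in the mixed lineage leukemia, 14528 in the proB ALL, 3010 in the B/T BAL and 3099 in the normal marrow. Fcnb, a lectin of neutrophil precursors, had 29035 against 285, 1343 and 6243. Serpinb1a, an inhibitor of those proteases, was higher by 1.76 and Hp (haptoglobin) by 1.22. The granule enzymes themselves differed less. Mpo, Elane, Prtn3 and Ctsg, named here for their function after their values were seen, had differences of 0.46, 0.66, 0.59 and 0.29. Gfi1, a repressor that directs granulocyte fate, had 4066 in the mixed lineage leukemia, 1474 in the proB ALL, 5688 in the B/T BAL and 2039 in the normal marrow. Genes of late granules, made as neutrophils mature, had 16 of 18 measured members above 0, 5 of them at least 2-fold, and a median of 0.79 (0.19 to 0.88 above all genes), again turning to -0.24 under control scaling. Pglyrp1, a peptidoglycan-binding protein, had 49370 against 5415, 3011 and 14075 in the proB ALL, the B/T BAL and normal marrow. Anxa1, a regulator of inflammation, and Chil3, a chitinase-like protein, had differences of 1.19 and 1.10. The receptors Csf3r (for G-CSF) and Cxcr2 (for neutrophil chemokines) were the 2 members below 0, at -0.98 and -0.67, the second of them outside the naming rule. S100a8, a calcium-binding protein of neutrophils that is also outside the naming rule, had 117723 against 69267 in normal marrow.

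The granulocyte types went opposite ways. The measured genes of eosinophils, basophils and mast cells held 8 members higher by 2-fold or more and 7 lower by 2-fold or more, so their median, 1.17, described neither. The list was split by cell type after its values had been seen. All 7 eosinophil genes were lower by 2-fold or more (6 at the floor), with a median of -3.17 and one of -3.26 with dim signals at the floor. Epx (eosinophil peroxidase) had 156 in the mixed lineage leukemia, 46.3 in the proB ALL, 25.9 in the B/T BAL and 25742 in the normal marrow, at least 136-fold lower. Prg2, the major basic protein of eosinophil granules, had 2186 against 43661 in normal marrow. Alox15, a lipoxygenase of eosinophils, had 681 against 6542, and Ccr3, the eotaxin receptor, 80.9 against 683. All 8 basophil and mast cell genes were higher by 2-fold or more (7 at the floor), with a median of 1.51 that lay 1.34 to 1.70 above all genes. Mcpt8, a protease of basophils, had 39892 in the mixed lineage leukemia, 238 in the proB ALL, 1478 in the B/T BAL and 9174 in the normal marrow. Fcer1a and Ms4a2, which encode the alpha and beta chains of the high-affinity IgE receptor, had 6821 against 1645 and 4455 against 1338 in normal marrow. Hdc, the histamine-forming enzyme, had 10445 against 3561, and Cpa3, a carboxypeptidase of mast cell granules, 7222 against 2559. These 4 genes were named after their values were seen. On the arrays of proB ALL and B/T BAL, Fcer1a had 45.8 and 252 and Ms4a2 had 30.8 and 176.

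**Figure D2:**
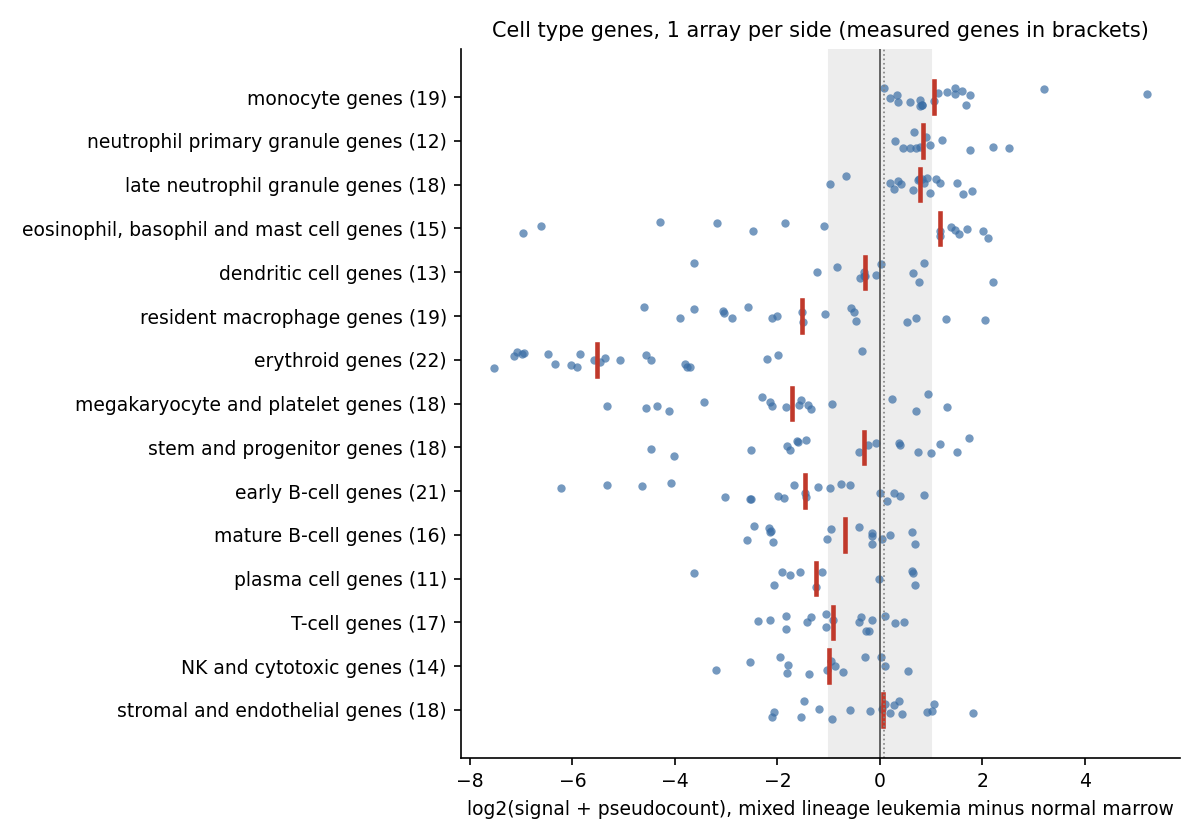
Difference of log2(signal + 51.5), mixed lineage leukemia minus normal marrow (x axis), for the measured genes of 15 cell type lists (rows, with the number of genes). Each point is a gene, each red bar a list median, the grey band spans less than 2-fold and the dotted line is the median of all genes, 0.09. Erythroid genes reach below -7, monocyte genes lie at or above 0 (their median falls to 0.02, and that of the 2 neutrophil lists below 0, under scaling to the hybridisation controls), and the eosinophil, basophil and mast cell row splits in both directions.

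Erythroid genes had the lowest list median of the comparison. Red cell precursors form a large share of normal marrow and carry the heme pathway, blood group proteins and a membrane skeleton. Of 22 measured erythroid genes, 21 were lower by 2-fold or more and 0 higher, with a median of -5.52, or -5.36 with dim signals at the floor. The membrane proteins included Rhd, a Rh blood group protein, with 73.1 in the mixed lineage leukemia, 147 in the proB ALL, 284 in the B/T BAL and 22991 in the normal marrow, at least 122-fold lower. Kel, the Kell blood group protease, had 70.0 against 14966, at least 79.1-fold lower, and the anion exchanger Slc4a1 had 592 against 41904. Among enzymes, Car1 (carbonic anhydrase 1) had 89.9 against 19804. Nfe2, a factor that granulocyte precursors also express, was the exception at -0.35 (named after its value was seen), with 13334 against 17027 in normal marrow and 439 and 1150 in the other leukemias.

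The heme pathway could be followed step by step. Of 18 measured heme and iron genes, 14 were lower by 2-fold or more and 1 higher, with a median of -2.20. Alas2, the first enzyme of the pathway in red cells, had a difference of -6.98, and Alad, which joins its products, of -5.08 (454 against 17058). Uros, Cpox and Ppox, enzymes further along, had differences of -3.93, -2.43 and -2.55. Other measured probe sets had -6.17 and -2.98 for Cpox, -3.45 for Ppox, -2.22 for Uros and -3.14 for Alad. The size of the difference at each of these steps therefore depended on the probe set. Fech, which inserts the iron, had 2540 in the mixed lineage leukemia, 2183 in the proB ALL, 3467 in the B/T BAL and 40745 in the normal marrow. Slc25a37, which carries iron into mitochondria, had 1054 against 33405, and Slc25a38, which brings in glycine, 681 against 4444. Alas1, the form of the first enzyme used in other cells, had 9316 against 7266, a difference of 0.36. Cpox, Ppox and Alas1 lie outside the naming rule. The red cell form and the general form of the same enzyme therefore differed in opposite directions, though the sign of Alas1 turned under median and control scaling.

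Most regulators of red cells and platelets were lower. Klf1 and Gata1, the factors that drive red cell genes, had differences of -6.48 and -4.56. Sox6 had 69.8 against 5239 in normal marrow, and Zfpm1, the partner of GATA factors, 282 against 5931. Tal1 and Gfi1b, factors of red cells and megakaryocytes, had 749 against 17694 and 486 against 8632. Of 18 measured factors of these lineages 11 were lower by 2-fold or more, 2 higher and 5 between, with a median of -1.76. The 2 that were higher by 2-fold or more were Fli1, a factor of megakaryocytes and other blood cells, with 9712 against 3861, and Gata2, the GATA factor of stem cells and mast cells, with 2925 in the mixed lineage leukemia, 285 in the proB ALL, 532 in the B/T BAL and 1270 in the normal marrow. Both were named after their values were seen. Platelet genes were lower too, 13 of 18 at least 2-fold, with a median of -1.71. Ppbp, a chemokine stored in platelets, had 351 against 16168, and Pf4 (platelet factor 4) 531 against 10077. The platelet tubulin Tubb1 lay below the floor at 157 against 4199.

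Upstream sequences of some of these genes are shown because GATA1 binds AGATAA or TGATAA in many red cell genes, and because the members were lower together. They are the 120 bases before the transcription start in RefSeq on GRCm38.p6, read 5′ to 3′ on the gene's strand, with AGATAA or TGATAA on either strand in capitals. Alas2 is at chrX:150547297-150547416 (+), Klf1 at chr8:84901862-84901981 (+), Ermap at chr4:119189996-119190115 (-), Rhd at chr4:134864416-134864535 (+), Kel at chr6:41704326-41704445 (-) and Aqp1, shown as one without a match, at chr6:55336179-55336298 (+).
Alas2: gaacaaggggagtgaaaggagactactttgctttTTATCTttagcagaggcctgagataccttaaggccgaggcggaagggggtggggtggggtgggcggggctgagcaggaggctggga
Klf1: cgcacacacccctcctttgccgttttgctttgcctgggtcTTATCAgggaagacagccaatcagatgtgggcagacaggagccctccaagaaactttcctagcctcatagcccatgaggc
Ermap: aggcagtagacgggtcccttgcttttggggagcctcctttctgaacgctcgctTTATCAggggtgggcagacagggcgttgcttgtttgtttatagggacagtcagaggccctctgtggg
Rhd: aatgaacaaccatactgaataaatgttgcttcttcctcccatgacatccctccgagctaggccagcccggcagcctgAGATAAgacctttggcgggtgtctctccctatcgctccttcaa
Kel: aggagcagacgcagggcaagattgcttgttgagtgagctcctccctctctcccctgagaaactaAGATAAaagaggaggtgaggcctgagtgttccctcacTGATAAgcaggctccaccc
Aqp1: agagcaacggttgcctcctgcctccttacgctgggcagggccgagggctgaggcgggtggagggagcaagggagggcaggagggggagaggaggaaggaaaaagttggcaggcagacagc
In the 250 bases upstream, either spelling occurred in 11 of 17 erythroid genes with a promoter in the table (64.7%) and in 1335 of 10773 measured genes (12.4%). Among the 20 genes furthest above normal marrow, 7 of 17 had one (41.2%), and among the primary granule genes 0 of 10. The motifs and the genes shown were chosen after their promoters had been seen, and a match is a string of letters and not a measured binding site.

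For the granule genes the motif was GAGGAAG on either strand, a core bound by PU.1, the ETS factor of myeloid cells. Elane at chr10:79886192-79886311 (+) and Prtn3 at chr10:79879547-79879666 (+) are neighbours on the chromosome and are shown because both hold it.
Elane: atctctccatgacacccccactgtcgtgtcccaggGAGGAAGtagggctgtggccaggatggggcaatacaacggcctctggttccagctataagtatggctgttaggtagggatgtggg
Prtn3: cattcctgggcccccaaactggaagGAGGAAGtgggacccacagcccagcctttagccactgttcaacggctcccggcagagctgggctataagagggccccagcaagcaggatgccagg
It occurred in 5 of 10 primary granule genes, in 1391 of 10773 measured genes (12.9%), in 3 of 17 erythroid genes (17.6%) and in 3 of 15 monocyte genes. Among the 20 genes furthest above normal marrow 5 of 17 had it (29.4%), and among the 20 furthest below 4 of 17 (23.5%). In all, 4 motifs were searched. The AP-1 motif TGANTCA occurred in 0 of 21 early response genes and 631 of 10773 measured genes (5.86%), and the E-box CACGTG in 2 of 20 ribosome biogenesis genes and 9.54% of measured genes. Spi1, which encodes PU.1, had 7257 in the mixed lineage leukemia, 612 in the proB ALL, 1208 in the B/T BAL and 3444 in the normal marrow. Cebpa, a partner in granulocyte genes, had 3786, 407, 529 and 1948 in the same order. Both were named for their role after their values were seen. Of 21 measured myeloid factors, 10 were higher by 2-fold or more and 1 lower, with a median of 0.98 that was -0.06 under scaling to the hybridisation controls.

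Tissue macrophage genes parted from the monocyte genes. Of 19 measured genes of resident macrophages, which nurse red cell precursors and clear dying cells, 12 were lower by 2-fold or more (11 at the floor), 2 were higher (0 at the floor) and the median was -1.52. The complement chains C1qa, C1qb and C1qc had 443 against 6048, 298 against 5164 and 178 against 5536 in normal marrow. C1qc lay below the floor and was at least 29.3-fold lower, while it had 1570 in the proB ALL and 1061 in the B/T BAL. Axl, a receptor for dying cells, had 233 against 2315, and the mannose receptor Mrc1 480 against 3870. The macrophage secretory protein Cd5l had 770 against 6667. Hmox1, which breaks down heme, had 1301 against 5739. The mixed lineage array thus had the lowest C1q signals of the 4 arrays, and also the lowest of Axl. For other genes of the list it was not the lowest. Mrc1 had 250 and Cd5l 363 in the B/T BAL, and Hmox1 had 423 in the proB ALL and 1127 in the B/T BAL. The monocyte list had a median of 1.06 on the same pair of arrays, which was 0.02 under scaling to the hybridisation controls.

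The lymphoid genes did not follow the myeloid ones. The immunophenotype was read by flow cytometry, and the array did not measure it, but neither B-cell nor T-cell genes lay above their normal marrow level as lists. Of 21 measured early B-cell genes, 13 were lower by 2-fold or more and 0 higher, with a median of -1.46 and one of -1.63 with dim signals at the floor. Vpreb1 and Igll1, the surrogate light chain of B-cell precursors, had 97.3 against 11111 and 52.7 against 4111 in normal marrow, folds of at least 58.7 and at least 21.7. A second probe set of Igll1 differed by less than 2-fold, with 305 against 503. Rag1, which cuts DNA at antigen receptor genes, had 19.8 in the mixed lineage leukemia, 1.76 in the proB ALL, 14988 in the B/T BAL and 1721 in the normal marrow. Dntt, which adds bases at those cuts, had 314, 82.8, 11061 and 2913 in the same order. Spib, an ETS factor of B cells and plasmacytoid dendritic cells, had 991 against 5977 in normal marrow. Some early B-cell genes stayed near normal, among them Cd24a, also made by granulocyte precursors, at 52736 against 52264, which is outside the naming rule.

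Among 16 measured mature B-cell genes 7 were lower by 2-fold or more and 0 higher, with a median of -0.68. Cd72 and Cd22, coreceptors of the B-cell receptor, had 528 against 3420 and 773 against 3633 in normal marrow. Ighm, the heavy chain of IgM, had 9162 in the mixed lineage leukemia, 21174 in the proB ALL, 19421 in the B/T BAL and 40104 in the normal marrow, though its probe sets disagreed and one had 348 against 59.4. Of 11 plasma cell genes 7 were lower, with a median of -1.25 but -0.52 with dim signals at the floor. Jchain, which joins IgM and IgA units, had 5382 against 20477, and the plasma cell protein Mzb1 1259 against 5457. Genes of T cells had a median of -0.91, and -0.39 at the floor, with 8 of 17 lower (4 at the floor) and 0 higher. Cd3e, a chain of the T-cell receptor complex, had 43.8 in the mixed lineage leukemia, 32.3 in the proB ALL, 11474 in the B/T BAL and 372 in the normal marrow. The adaptor Lat had 106, 4436, 26454 and 765 in that order, and Thy1 had 453, 28959, 54065 and 995. Genes of NK and cytotoxic cells had 7 of 14 lower (4 at the floor) and 0 higher, with a median of -0.99. Eomes, a factor of killer cells, had 67.4 in the mixed lineage leukemia, 15148 in the proB ALL, 127 in the B/T BAL and 641 in the normal marrow. For each of these T and NK genes the mixed lineage signal was below that of normal marrow. Ptprc (CD45), carried by nearly all white blood cells, had 36338 against 24486 in normal marrow.

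**Figure D3:**
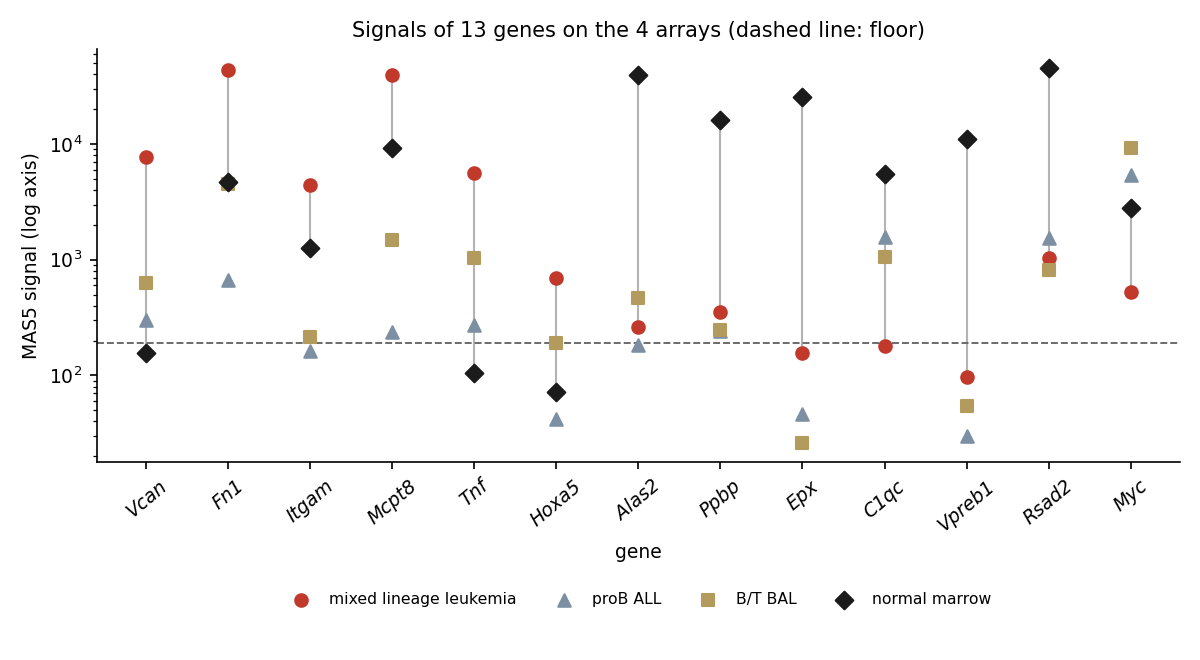
MAS5 signals (y axis, log scale) of 13 genes (x axis) on the 4 arrays, 1 point per array, with a grey line from the mixed lineage to the normal marrow signal and a dashed line at the floor of 189. Vcan, Fn1, Itgam, Mcpt8 and Tnf are highest in mixed lineage leukemia, while Alas2, Ppbp, Epx, C1qc, Vpreb1 and Rsad2 are highest in normal marrow.

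Genes of stem and progenitor cells were mixed. Of 18 measured, 3 were higher by 2-fold or more and 8 lower, with a median of -0.32 that was -1.23 to -0.23 relative to all genes over the settings. The 8 included Tal1 and Gfi1b, which red cell precursors also express. Cd34, a surface sialomucin of progenitors, had 244 in the mixed lineage leukemia, 175 in the proB ALL, 252 in the B/T BAL and 1641 in the normal marrow. Kit, the stem cell factor receptor, had 2061, 1366, 201 and 2413. Prom1, the membrane protein CD133, had 13201, 335, 668 and 3926, so it was highest in mixed lineage leukemia. Erg, an ETS factor of stem cells named after its values were seen, had 3214, 55.3, 122 and 1097. Each of the last 2 genes was more than 2-fold above normal marrow and below it in the other leukemias.

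The genes of the fusion partners differed by less than 2-fold at their brightest probe sets. Kmt2a had 1660 in the mixed lineage leukemia, 2869 in the proB ALL, 4001 in the B/T BAL and 1160 in the normal marrow, and Aff1 had 5091, 2004, 4263 and 4329. Dimmer probe sets did not all follow: another of Kmt2a had 453 against 916 in normal marrow, the opposite direction, and the other ones of Aff1 had 378 against 298 and 323 against 79.7. These probe sets lie at set places in the mouse genes and the labels do not say which species' sequence the fusions carried, so they do not check the fusions. Of 22 genes of MLL, AF4 and their partner proteins 7 were lower by 2-fold or more and 0 higher, with a median of -0.45. Ell2, an elongation factor that binds AF4 family proteins, had 887 against 5703 in normal marrow, although a dim second probe set had 221 against 6.21. Mllt3 and Mllt1, related readers of acetylated histones found in that complex, had 215 against 1046 and 88.0 against 474. Psip1, which tethers MLL to chromatin, had 2777 against 7015, and Rbbp5, a core subunit of MLL complexes, 1151 against 3057.

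Hox genes were dim. Hoxa and Hoxb genes are the classical targets of MLL, and of 20 with a probe set only 11 were measured, 8 of them below the floor in normal marrow. At least 2-fold, 8 were higher and 1 lower, but with dim signals at the floor 3 were higher and 1 lower. Hoxa5 had 695 in the mixed lineage leukemia, 42.1 in the proB ALL, 192 in the B/T BAL and 72.1 in the normal marrow, at least 3.67-fold higher, while its other measured probe set, the one left without probe sets marked for cross-hybridisation, had 58.9 against 202. For Hoxa4 the signals were 384, 5.72, 13.8 and 26.4, at least 2.03-fold higher. Hoxa9, the Hox gene most tied to MLL leukemia, had 320, 171, 269 and 743, but by another probe set 512 in mixed lineage leukemia against 280 in normal marrow. Its direction therefore depended on the probe set. Meis1, the cofactor of Hoxa9, had 385, 45.8, 34.6 and 282. As a gauge of dim probe sets, 10 of 39 olfactory receptor genes, which marrow cells are not known to use, were measured on these arrays. Their median difference was 0.95, with 5 higher by 2-fold or more and 1 lower, and 0 in either direction at the floor. The Hox genes are set beside this gauge because most were as dim. The measured Hoxa and Hoxb genes had a median of 1.69. With dim signals at the floor it was 0.45, and that of the olfactory receptor genes 0.24. Over the settings that left members measured, the Hox median was 0.38 to 2.08 relative to all genes, and the olfactory one -0.30 to 1.21. Among 20 measured genes reported elsewhere as MLL fusion targets, 5 were higher and 5 lower, with a median of 0.03. Id2, an inhibitor of lymphoid factors, had 18047 against 4705, and Sox4, a factor of lymphoid precursors, 1695 against 5255 in normal marrow and 39714 in B/T BAL.

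Early response genes, which cells switch on within minutes of a stimulus, stood out among the highest genes. Of 25 measured, 11 were higher by 2-fold or more (10 at the floor) and 2 lower, with a median of 0.90 (0.62 to 0.85 above all genes) that was -0.17 under scaling to the hybridisation controls. Jun, a subunit of the AP-1 factor, had 6260 in the mixed lineage leukemia, 1157 in the proB ALL, 3329 in the B/T BAL and 507 in the normal marrow. Its partner Fos had 32385, 1007, 6099 and 6749. The stress gene Ier3 had 10856 against 1057 in normal marrow, and Egr1 4516 against 766, with 5763 in B/T BAL. Gadd45b and Gadd45g, stress sensors, had 18668 against 1026 and 8468 against 883. Other probe sets of Gadd45b differed less, with 6772 against 2136 and 1114 against 350. Sgk1, a kinase induced by serum and steroids, had 25478 against 2504. The B/T BAL array was also above normal marrow for Jun, Egr1, Ier3, Gadd45b, Gadd45g and Sgk1. It had 1471 for Ier3, 3642 for Gadd45b (but 2529 against 2136 by another probe set), 2373 for Gadd45g and 5374 for Sgk1. The proB ALL array was above it too for Jun, Egr1 (3528) and Gadd45g (1322). Fos was the exception, with both other leukemias below normal marrow. The other genes named here were therefore not raised on the mixed lineage array alone. The contrast of each of these genes also rests on the level of the single normal array.

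Inflammatory genes formed a second group of the highest genes. Tnf, a cytokine of activated monocytes, had 5576 in the mixed lineage leukemia, 272 in the proB ALL, 1033 in the B/T BAL and 106 in the normal marrow, at least 29.5-fold higher. Il6 had 1700, 78.5, 116 and 136, at least 8.99-fold higher. The chemokine Ccl3 had 5457, 1691, 362 and 428, and Ccl9 had 23041, 1381, 3033 and 5424. The acute phase protein Saa3 had 2328, 1157, 564 and 209, and the stefin Stfa3, an inhibitor of cysteine proteases, 9866, 1276, 2897 and 716. Saa3, Stfa3 and Tnf were thus above normal marrow in the other leukemias too, and Ccl3 was above it in the proB ALL. Nfkbia, which holds NF-kB in the cytoplasm and is named after its values were seen, had 59974, 33316, 23534 and 18286. Nfkbiz, a gene of the same family, had 18830, 4328, 1843 and 685 in the same order of arrays. Its other probe sets had 2297 in mixed lineage leukemia against 1308 in normal marrow, and 209 against 234. At their brightest probe sets, Nfkbia and Nfkbiz were thus also above normal marrow in the other leukemias. Of 17 measured cytokine genes 8 were higher by 2-fold or more (7 at the floor) and 1 lower, with a median of 0.71 that was -0.52 under control scaling. The 1 lower gene was Il1b, also outside the naming rule, at 871 against 2606. Cytokine genes therefore did not all go the same way.

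**Figure D4:**
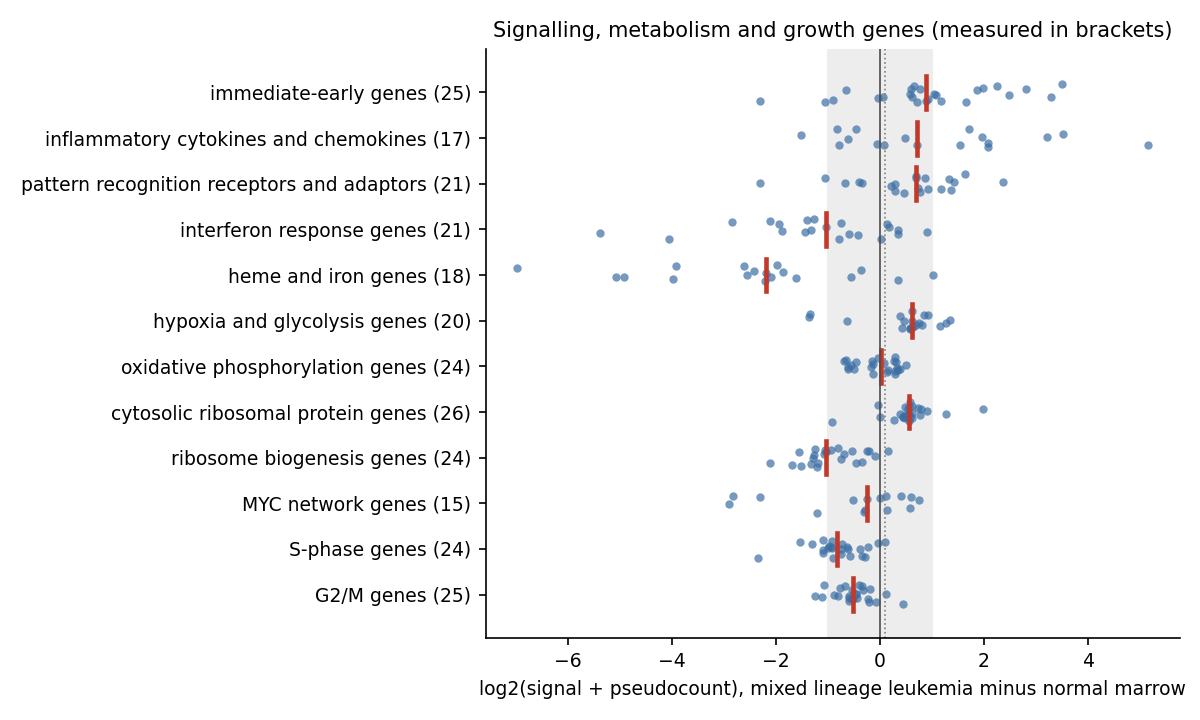
Difference of log2(signal + 51.5), mixed lineage leukemia minus normal marrow (x axis), for measured genes of 12 lists of signalling, metabolism and growth (rows, with the number of genes). Points are genes, red bars list medians, the grey band less than 2-fold. Ribosome biogenesis genes lie at or below 0 apart from 1, with a median of -1.04, heme and iron genes have a median of -2.20, and the median of immediate-early genes, 0.90, turns to -0.17 under scaling to the hybridisation controls.

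Receptors that sense microbes and antibodies had list medians close to that of the cytokines. Of 21 pattern recognition genes 6 were higher by 2-fold or more and 2 lower (1 at the floor), with a median of 0.69 (-0.29 under control scaling). Their differences ran from -2.31 to 2.36. The genes at those ends are not named here, and the ones that follow are all higher genes. Clec4e, a lectin of activated macrophages, had 5928 against 1877 in normal marrow, Fpr2, a formyl peptide receptor of neutrophils, 45994 against 17669, and Pycard, the inflammasome adaptor, 20998 against 7819. Of 18 Fc and complement genes 6 were higher by 2-fold or more (5 at the floor) and 4 lower, with a median of 0.70 (-0.35 under control scaling). The antibody receptors Fcgr4, Fcgr2b and Fcgr3 had differences of 1.61, 1.39 and 1.21, and the 4 lower genes were C1qa, C1qb and C1qc, given above, and Cd59a, a complement inhibitor, at -2.96. The 3 antibody receptors were named after their values were seen. Of the myeloid growth factor receptors 2 of 20 were higher and 1 lower, with a median of 0.38 that turned negative under median and control scaling. Their differences ran from -2.16 to 2.93, and the gene at the upper end is not named here. Il1r2, the decoy receptor for interleukin 1, had 9537 in the mixed lineage leukemia, 2111 in the proB ALL, 1565 in the B/T BAL and 2402 in the normal marrow. Its signalling counterpart Il1r1 had 69.3 against 488, with a dim second probe set at 191 against 1.42. Of 17 measured NADPH oxidase and antioxidant genes 3 were higher by 2-fold or more, 6 lower and 8 between, with a median of -0.10, so the higher share did not exceed the 19.4% of all genes. The 3 higher genes were chains of the phagocyte oxidase (Cybb 1.47, Ncf4 1.33 and Cyba 1.07), while its other measured parts Ncf1 and Rac2 had differences of 0.92 and 0.01, with a dimmer probe set of Rac2 at 1.78. The 6 lower genes were Gclm (-3.43) and Gclc (-2.84), the subunits of the enzyme that starts glutathione synthesis, Prdx2 (-3.12), Hmox1 (-2.10), Cat (-1.95) and Nqo1 (-1.82). The antioxidant genes Gpx1 and Txn1 had differences of 0.57 and 0.35. These and the oxidase genes were named after their values were seen, and red cell precursors are rich in Prdx2 and Cat.

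Interferon response genes were lower in the leukemia than in this normal marrow. Of 21 measured, 11 were lower by 2-fold or more and 0 higher, with a median of -1.03 that was -1.28 to -0.92 relative to all genes. Rsad2 (viperin, an antiviral enzyme) had 1038 in the mixed lineage leukemia, 1527 in the proB ALL, 820 in the B/T BAL and 45401 in the normal marrow. Ifit1, which binds foreign RNA, had 67.0, 538, 104 and 1914, at least 10.1-fold lower. Usp18, which damps interferon signalling, had 211, 651, 377 and 1844, and Oasl2 had 341, 429, 137 and 1654. For each of these 4 genes the normal array was above all 3 leukemias, so the contrast turns on the level of the single normal array. Mx1, outside the naming rule, was near equal at 301 and 295.

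Myc and the ribosome factories it is known to drive were lower. Myc had 521 in the mixed lineage leukemia, 5373 in the proB ALL, 9292 in the B/T BAL and 2774 in the normal marrow, the lowest of the 4 arrays. Of 24 ribosome biogenesis genes 13 were lower by 2-fold or more and 0 higher, and 23 lay below 0, with a median of -1.04 (-1.21 to -0.81 relative to all genes). Gnl3 (nucleostemin, a nucleolar GTPase) had 944, 9905, 9581 and 4277, and Dkc1, the pseudouridine synthase of ribosomal RNA, had 2983, 20493, 16054 and 9738. Gar1, its partner, had 1995, 8398, 8872 and 4957. The processing factors Rrp9, Tsr1 and Bysl had differences of -1.55, -1.51 and -1.32, though a second probe set of Tsr1 had 777 against 715. On each of these genes with 4 signals the mixed lineage array was lowest and the other leukemias were above normal marrow. Cad, the first enzyme of pyrimidine synthesis, had 516 against 4199, but 395 against 121 by a dimmer probe set. Odc1, of polyamine synthesis, had 3366 against 24207. Of 15 measured MYC network genes 4 were lower by 2-fold or more and 0 higher. Their median was -0.25, and 7 lay above 0. Of the genes for the proteins of the ribosome itself 24 of 26 lay between the 2-fold limits, 2 were higher and 0 lower, a smaller higher share than the 19.4% of all genes. Their median of 0.56 was -0.07, -0.08 and -0.48 under quantile normalization and under median and control scaling.

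Most cell cycle genes lay below their normal level by less than 2-fold. Of all measured genes 46.4% lay below 0 and 15.4% were lower by 2-fold or more. Of 24 S-phase genes 23 were below 0 and 7 lower by 2-fold or more, with a median of -0.83. Cdc6, which loads the replicative helicase, had 1853 in the mixed lineage leukemia, 1981 in the proB ALL, 2391 in the B/T BAL and 9657 in the normal marrow. The helicase subunits Mcm2, Mcm4 and Mcm6 had differences of -1.30, -1.10 and -1.09, with a dim second probe set of Mcm6 in the opposite direction. Of 25 G2/M genes 23 were below 0, with a median of -0.52, but only 3 were lower by 2-fold or more, no larger a share than that of all genes. Aurka, a kinase of the mitotic spindle, had 2463 against 5952 by its brighter probe set, and Mki67, carried by dividing cells, 21304 against 28986. Both lists stayed below all genes under every setting tried, at -1.01 to -0.74 and -0.68 to -0.43. Red cell precursors divide fast, and the erythroid list moved with these genes; its part in them was not tested.

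Energy and stress genes differed by type. None of 24 oxidative phosphorylation genes differed 2-fold, and their median was 0.02. Glycolysis and hypoxia genes had 17 of 20 members above 0 and a median of 0.62, which was -0.38 under control scaling. Pkm, the last step of glycolysis, had 19061 in the mixed lineage leukemia, 14275 in the proB ALL, 21341 in the B/T BAL and 7418 in the normal marrow, whereas Hk1, the hexokinase of red cells, had 3615 against 9349. Of 17 heat shock genes 2 were higher by 2-fold or more and 3 lower, with a median of -0.30. Among them Hspa1b had 5983, 192, 5058 and 662, while Hsph1, a cofactor of the same chaperone, had 309 against 3680. Of 18 unfolded protein response genes 1 was higher by 2-fold or more, 5 lower and 12 between, with a median of -0.13. Ppp1r15a, which restores translation after stress, had 810 in mixed lineage leukemia against 11423 in normal marrow, and Asns (asparagine synthetase) 3448 against 8925. Of 13 genes of the BCL2 family, which set the threshold for cell death, 1 was higher and 3 lower by 2-fold or more, with a median of 0.17. Bcl2l1 was 1533 against 5002 and Bbc3 94.7 against 539, while Pmaip1 was 1879 against 520. Bcl2 had 462 against 1398, but 3 of its other probe sets were higher, the brightest at 667 against 305.

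Sex-linked genes were read as a check of the samples. Xist had 33134 in mixed lineage leukemia and 23145 in normal marrow. The Y-linked Kdm5d had 200, just above the floor, and 89.2, below it, and its other probe sets lay below the floor on both arrays. On both arrays Xist was thus bright and Kdm5d dim.

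**Figure D5:**
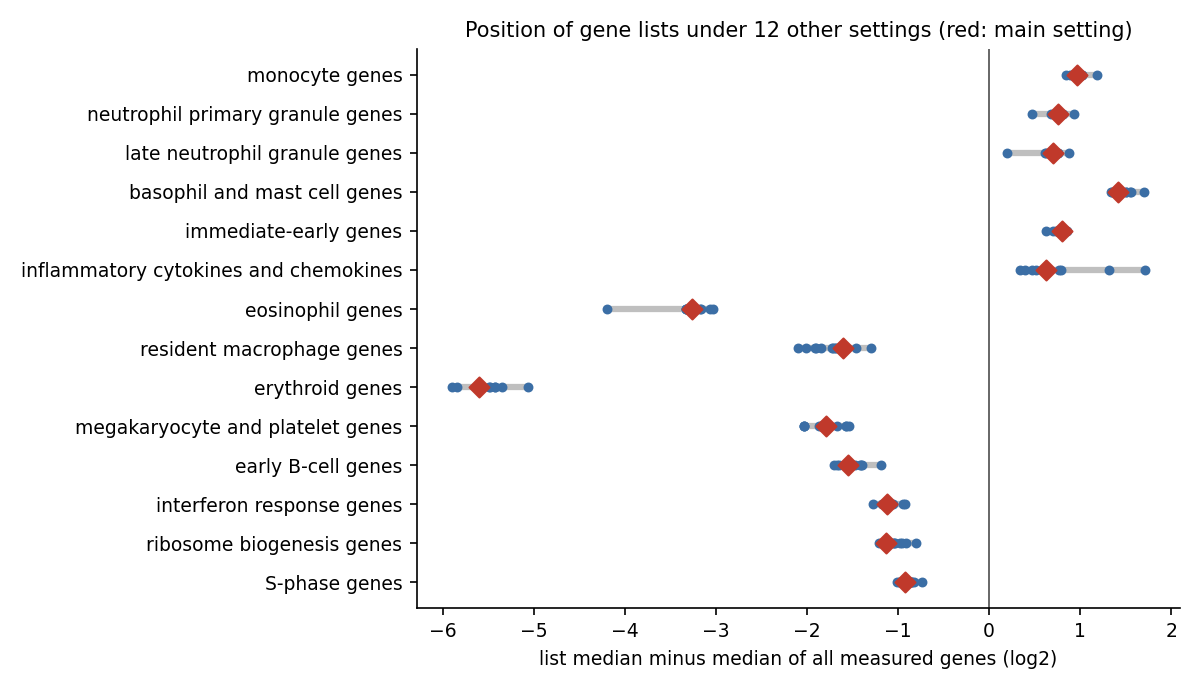
List median minus the median of all measured genes (x axis, log2) for 14 gene groups (rows) under the main setting (red diamonds) and 12 other settings (blue points, grey bar for their range). Each group stays on its side of 0 relative to all genes, from erythroid genes at -5.61 to basophil and mast cell genes at 1.42, although the unadjusted medians of the neutrophil, immediate-early and cytokine groups fall below 0 under scaling to the hybridisation controls.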

How the data were processed

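Total RNA (RNeasy kit, per the labels) was labelled with biotin and hybridised to 1 array per sample. Each deposited value is a probe set's intensity on a linear scale. Per the submitters' processing notes the tool was MAS5, of which the sources used here give neither version nor settings. The trimmed mean of each array was 1000 after removal of 2% from each end.

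Of 45101 probe sets, 64 controls were left out, 34945 carried 1 gene symbol, 932 several and 9160 none in the platform annotation. The RefSeq gene table held 34741 of the 34945, and 0 symbols changed. For each gene the probe set brightest by mean log2(signal + 51.5) over the 4 arrays was kept, using Python 3.11.15, numpy 2.4.6 and pandas 2.3.3. A call is a difference of at least 2-fold. The steps were tested on a copy of the normal array with small noise and known changes put into bright genes. That copy had no raised low signals and no difference in scaling, so the test did not address them.

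The members and the 48 gene lists (916 genes, of which 92 were not analysed here for want of a single-symbol probe set) were chosen with earlier results of these data known. Genes are named as the 20 highest and the 20 lowest at the floor, up to 6 of each list with the largest difference, a set of lineage markers, fusion partners and sex-linked genes, and list members whose probe sets differ at least 2-fold in opposite directions; others are marked. Alternatives changed scaling, pseudocount, floor, filter and choice of probe set. Scaling to the hybridisation controls was added after seeing the data.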

Additional observations from a re-analysis of the deposited data

How the results depend on the processing

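Each group held 1 array, so none could be left out. No paired analysis was possible because each group held 1 array. Scaling moved the counts most: under median scaling 979 genes were higher by 2-fold or more and 4264 lower, or 358 and 3900 with dim signals at the floor, and under scaling to the hybridisation controls 692 and 6580, or 194 and 5997. A pseudocount at the 50th percentile left 1536 genes higher, and raising dim signals to the floor 1529. A filter at the 75th percentile tested fewer genes and left 726 higher and 1258 lower, or 761 higher at the floor. With the mean over probe sets 1010 were higher at the floor, and with the floor at the 75th percentile 583 were higher and 914 lower. Other alternatives kept each count within 1.5 times.

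Of 48 lists, 11 had a median at least 1.5-fold above 0 and 13 at least 1.5-fold below. The higher lists numbered 5 under quantile normalization and 0 under median and control scaling, where the lower lists numbered 28 and 36. Of these 24 lists 14 kept their direction under all 12 alternatives. The eosinophil, basophil and mast cell list turned to -0.57 and the sex-linked list to -0.12 under median scaling. Under control scaling the same lists had -1.03 and -0.52, primary granule genes -0.19, late neutrophil genes -0.24, myeloid factors -0.0588, cytokines -0.52, pattern recognition genes -0.29, Fc and complement receptors -0.35, immediate-early genes -0.17 and glycolysis genes -0.38. Of 154 named genes with a 2-fold difference 150 kept their direction. With the mean over probe sets Bcl2 turned to 0.36 and Mcm6 to 0.0521, and without cross-hybridising probe sets Hoxa5 turned to -1.20 and Tagln2 to -0.33. The cause was not tested for the scalings. Signal near the floor limits the dim genes, the Hox genes above all.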

Other observations

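The histone genes H3c7 and H3f3b were among the 20 highest in the mixed lineage leukemia. H3c7, a replication-dependent histone H3 gene whose transcripts normally lack a poly(A) tail, had a signal of 22112 in the mixed lineage leukemia, 532 in the proB ALL, 4052 in the B/T BAL and 746 in the normal marrow. Of 10 measured canonical histone genes, 5 were higher by 2-fold or more, 5 were between and 0 lower, also with dim signals at the floor. Their median was 1.05. It was 0.25 under quantile normalization, 0.14 under median scaling, -0.19 under scaling to the hybridisation controls, 0.56 with no filter on dim genes and 0.66 without cross-hybridising probe sets, and the group was picked after its values were seen. H3f3b, which encodes the replication-independent variant H3.3, had 14845, 331, 9075 and 1500 in the same order of arrays. S-phase genes had a median of -0.83 on the same pair of arrays.

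The calcium-binding S100a family had 8 measured genes, all above 0, with 4 higher by 2-fold or more and a median of 0.89 (-0.27 under scaling to the hybridisation controls). The Ms4a family of membrane proteins had 5 of 14 genes higher by 2-fold or more (4 at the floor) and 1 lower. The 76 measured genes of mitochondrial ribosomal proteins had a median of -0.24, with 0 higher by 2-fold or more and 8 lower. These families too were picked after their values were seen.

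Other genes among the 20 highest were Ppp1r10, a regulatory subunit of protein phosphatase, with 3753 in mixed lineage leukemia against 256 in normal marrow, the WAP domain protein Wfdc17 with 31234 against 3247, and the small membrane protein Smim6 with 4261 against 480. Tagln2, an actin-binding protein, had 15819 in the mixed lineage leukemia, 15465 in the proB ALL, 10863 in the B/T BAL and 1770 in the normal marrow. Its other measured probe set had 6684 in mixed lineage leukemia against 8441 in normal marrow. Among the 20 lowest and outside the lists were Cdr2 with 108 against 20823, the retinal-oxidising enzyme Aldh1a1 with 47.9 against 13612, the claudin Cldn13 with 181 against 17713, the tetraspanin Tspan33 with 334 against 27117 and the amino acid transporter Slc38a5 with 81.3 against 10568.

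Probe sets of the same gene often disagreed. Of 5898 genes with 2 or more measured probe sets, 361 had one higher and another lower by 2-fold or more. Of 649 higher genes with several measured probe sets, 79.5% had each of them above 0 and 45.1% each at least 2-fold, and of 887 lower genes 60.7% and 36.3% had the same in their direction.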
